A study of Canis lupus familiaris with 2 samples.

Results

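The CpG cytosines of the mitochondrial DNA of MDCK, a dog kidney epithelial cell line, are described here in 2 whole-genome bisulfite libraries. One library came from cells treated for 30 days with 5 ng/ml TGF-beta and labelled mesenchymal, and the other from an untreated culture kept for the same 30 days and labelled epithelial. With 1 library in each group there is no replicate check, and a difference shows what separates these libraries rather than the conditions. The members are all listed cytosines of chrM (canFam3, 1-based positions as deposited) with at least 5 calls in both libraries. A call is 1 read base over a CpG cytosine, counted as methylated where the cytosine was left unconverted by bisulfite. Of 880 listed mitochondrial cytosines, in 440 CpG sites, 854 were members, of 31706906 cytosines that met the same minimum in the whole genome. The first position of a CpG was taken as its plus-strand cytosine and the second as its minus-strand cytosine, which gave 415 plus-strand and 439 minus-strand members. Both strands were members at 415 sites. Gene positions and the mitochondrial sequence are not used here.

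Mitochondrial DNA is a small circular genome kept in many copies per cell, outside the nucleus and without nucleosomes. It codes for subunits of the respiratory chain and for the ribosomal and transfer RNAs used to make them. Its strands differ in base composition, and a noncoding control region holds sequences that start replication and transcription. CpG methylation is a regular feature of nuclear DNA in mammals, whereas mitochondrial DNA is usually found almost free of it. In bisulfite data it therefore often serves as a check on conversion, and its strands are read from different molecules.

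Nearly all mitochondrial calls were unmethylated, and depth was far above that of the nuclear chromosomes. Mitochondrial members held 6950827 calls in the TGF-beta library and 2283901 in the control library. Of these calls, 0.328% (0.323 to 0.332) were methylated in the TGF-beta library and 0.210% (0.204 to 0.216) in the control library, where intervals here and below are exact 95% binomial (Clopper-Pearson) intervals that cover counting error only. Summed over the autosomes, 68.4% of calls were methylated in the TGF-beta library and 67.1% in the control library, for either strand. Mean depth was 28.5 calls per cytosine on the autosomes in the TGF-beta library and 17.7 in the control library.

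Depth was very unequal between the mitochondrial strands in both libraries. In the TGF-beta library the minus strand had a median of 14138 calls per cytosine (43 to 36394) and the plus strand a median of 140.0 (5 to 8437). In the control library the medians were 5022 (95 to 11406) for the minus strand and 153 (5 to 3701) for the plus strand. The minus strand held 93.3% of mitochondrial calls in the TGF-beta library and 91.5% in the control library. On the autosomes the strands were read alike, with a mean of 27.9 calls on either strand in the TGF-beta library, and 17.1 on the plus and 17.2 on the minus strand in the control library. Of the 415 sites with both strands, the minus strand was deeper at 370 in the TGF-beta library and at 368 in the control library. The site-by-site ratio of minus to plus depth had a median of 90.5 in the TGF-beta library and 34.6 in the control library.

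The depths of the strands tended to run opposite to each other along the circle, with exceptions. Across the 415 sites they had a Spearman rho of -0.48 in the TGF-beta library and -0.48 in the control library, a description only, since neighbouring sites share reads. The plus strand was the deeper one in both libraries at 45 sites. Of these, 30 lay in a run of closely spaced sites described below, 12 at positions 6001 to 6500, and 3 elsewhere. At 11501 to 12000 of the control library, in contrast, both strands were deep on average, with means of 1259 calls for plus-strand and 7921 for minus-strand cytosines. That plus-strand mean rested on 11647 and 11731, at 3646 and 3611 calls, while the other plus-strand cytosines of the bin had 8 to 273.

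**Figure D1:**
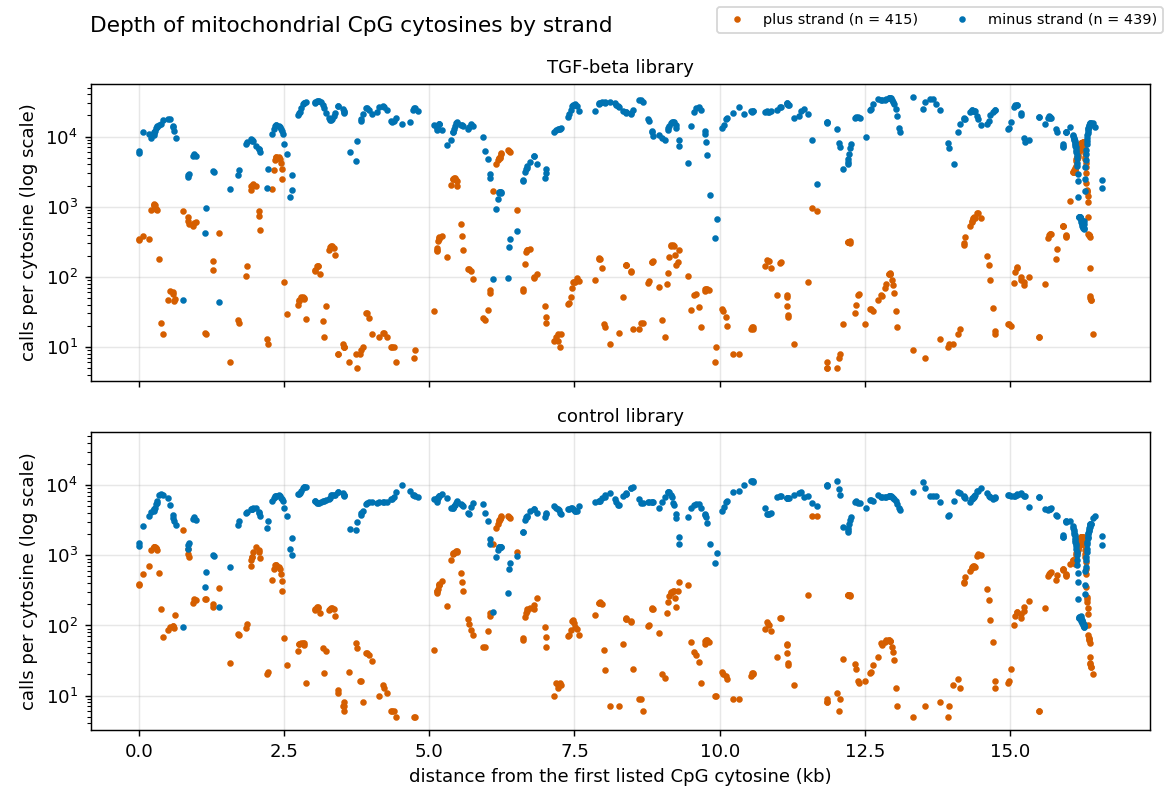
Calls per cytosine (log scale) of the 415 plus-strand and 439 minus-strand mitochondrial members against distance from the first listed cytosine, with the TGF-beta library above and the control library below. Minus-strand medians were 14138 and 5022 calls, plus-strand medians 140.0 and 153, and the strands approach or cross in places.

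Depth was also averaged in bins of 500 bp. Bins are named by depth relative to the mean of their strand, averaged over the libraries, so their order can differ within a library. By that measure the deepest plus-strand bins were 6001 to 6500, 16001 to 16500 and 2001 to 2500. At 6001 to 6500 the plus strand averaged 3778 calls per cytosine in the TGF-beta library and 2381 in the control library, at 16001 to 16500 it averaged 4108 and 934, and at 2001 to 2500 it averaged 2681 and 722. Within the TGF-beta library alone 16001 to 16500 was the deepest, and within the control library 11501 to 12000, at 1259 calls, came second. The latter mean was carried by the cytosines at 11647 and 11731.

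By the same measure the shallowest plus-strand bins were 4501 to 5000, 13501 to 14000 and 4001 to 4500. At 4501 to 5000 only 2 plus-strand cytosines were members, with a mean of 8 calls in the TGF-beta library and 5 in the control library. At 13501 to 14000 the mean was 10.0 calls in the TGF-beta library and 6.67 in the control library, and at 4001 to 4500 it was 13.7 and 14.0. In the TGF-beta library 3501 to 4000 was shallower than the last of these, at 12.3 calls.

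On the minus strand the deepest bins by this measure were 12501 to 13000, with 30898 calls in the TGF-beta library and 6617 in the control library, 13501 to 14000, with 26415 and 7289, and 8001 to 8500, with 27203 and 6745. Within the TGF-beta library alone 7501 to 8000, at 27548 calls, came second, and within the control library 11501 to 12000 was the deepest. The shallowest minus-strand bins were 6001 to 6500, with 1819 calls in the TGF-beta library and 1388 in the control library, 1001 to 1500, with 2666 and 1393, and 16001 to 16500, with 6573 and 1264. The last of these was the shallowest in the control library, whereas in the TGF-beta library 6501 to 7000, at 3446 calls, and 16501 to 17000, at 5983, lay below it. The bin at 6001 to 6500 thus combined a deep plus strand with a shallow minus strand in both libraries.

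The depth profile was largely the same in the libraries. Across 33 plus-strand bins the mean depths of the libraries had a Spearman rho of 0.93, and across 34 minus-strand bins 0.75. Single stretches departed from this on both strands. On the minus strand the bin ratio of TGF-beta to control depth ran from 1.04 at 6501 to 7000 to 5.41 at 7501 to 8000. Over single minus-strand members the ratio ran from 0.232 to 6.91. The plus strand held the widest departures. At 2526 the TGF-beta library had 2502 calls and the control library 308, a ratio of 8.12, the highest of all plus-strand members. At 1210 it had 15 calls and the control library 241, a ratio of 0.0622, the lowest. At 11647 and 11731 the TGF-beta library had 946 and 872 calls against 3646 and 3611 in the control library. These positions were picked after their values were seen.

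A run of 60 CpG sites between positions 16135 and 16429 was spaced by 4 and 6 bp in turn, a period of 10 bp. The control region of dog mitochondrial DNA is known to hold a short tandem repeat. The run held 59.6% of all plus-strand mitochondrial calls in the TGF-beta library and 31.6% in the control library. Its plus strand averaged 4615 calls per cytosine in the TGF-beta library and 1018 in the control library, and its minus strand 5613 and 1032.

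Within the run the plus strand was deepest near the middle, where the minus strand was shallowest. The ends of the run were unequal in depth, above all on the plus strand. At its first site the minus strand had 10378 calls in the TGF-beta library and 2610 in the control library, and the plus strand 3097 and 870. At the 20 sites within 50 bp of its middle the minus strand had 480 to 720 calls in the TGF-beta library and 95 to 135 in the control library, while the plus strand had 6463 to 8437 and 1402 to 1840. At its last site the minus strand was back to 15508 calls in the TGF-beta library and 2764 in the control library, and the plus strand had 53 and 29. Reads from repeat units that share their letters cannot be told apart by place, so a position inside the run is less certain than elsewhere; how the authors' alignment treated them is not given in the sources used here.

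**Figure D2:**
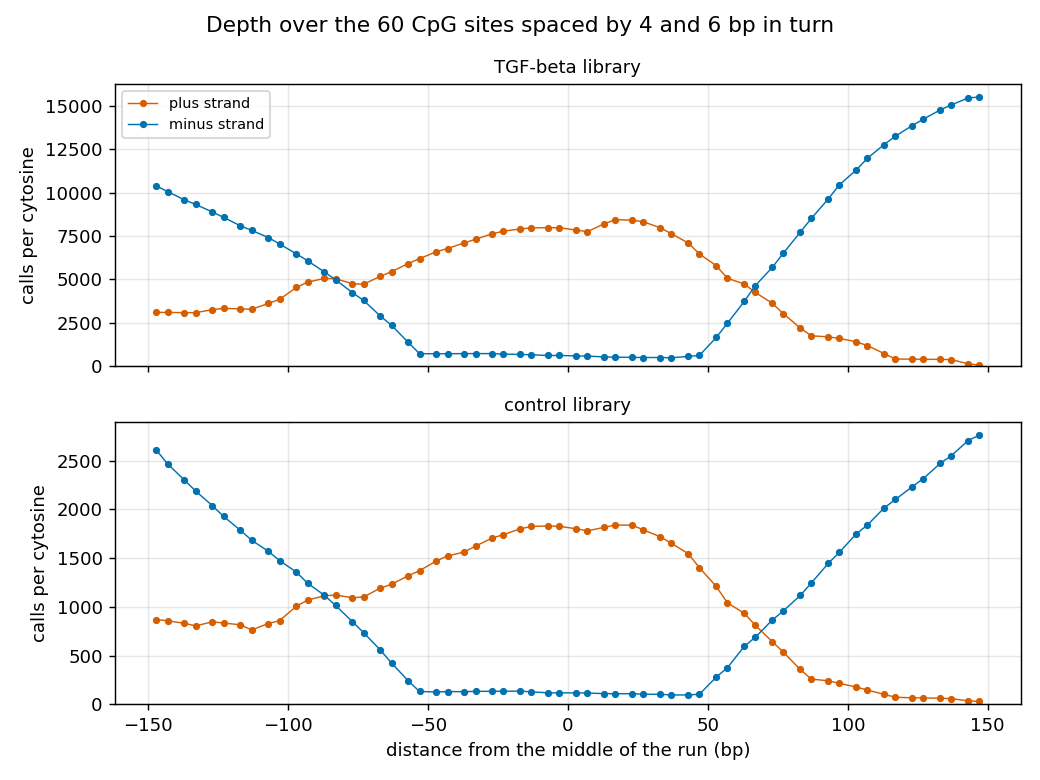
Calls per cytosine over the 60 CpG sites spaced by 4 and 6 bp in turn, by strand, against distance from the middle of the run, with the TGF-beta library above and the control library below on separate linear axes. In both libraries the plus strand peaks near the middle (8437 and 1840 calls at most), where the minus strand is at its lowest (480 and 95 calls).

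Methylation levels differed between the strands in the same direction in both libraries. Summed over plus-strand members, 0.989% (0.960 to 1.02) of calls were methylated in the TGF-beta library and 0.630% (0.595 to 0.666) in the control library. On the minus strand the levels were 0.280% (0.276 to 0.284) in the TGF-beta library and 0.172% (0.166 to 0.177) in the control library. Weighting each cytosine equally widened the gap between strands, because the plus strand had many shallow cytosines with high levels. The mean of cytosine levels on the plus strand was 15.2% in the TGF-beta library and 3.57% in the control library, and on the minus strand 0.476% and 0.193%. At single cytosines the plus strand ran from 0% over a median of 6.06% to 100% in the TGF-beta library, and from 0% over 1.02% to 60.0% in the control library. The minus strand ran from 0% over 0.273% to 19.1% in the TGF-beta library, and from 0% over 0.158% to 3.24% in the control library. A level under 1% was found at 423 of 439 minus-strand members in the TGF-beta library and at 434 in the control library, and at 95 and 202 of the 415 plus-strand members.

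On the plus strand the level fell with depth, closely in the TGF-beta library and less closely in the control library. In the TGF-beta library the Spearman rho of level and depth across the 415 plus-strand members was -0.94, and in the control library -0.42. On the minus strand it was -0.35 in the TGF-beta library and -0.086 in the control library. Level has depth as its denominator, so these values are descriptions. Cytosines were therefore also classed by the calls at the same cytosine in the other library, whose reads are separate.

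Classed in this way, plus-strand cytosines with 5 to 9 calls in the control library had a summed level of 56.3% (50.8 to 61.6) in the TGF-beta library, over 31 cytosines. With 30 to 99 calls in the control library the level in the TGF-beta library was 10.2% (9.51 to 11.0), with 300 to 999 calls 0.962% (0.908 to 1.02), and with 3000 calls or more 0.361% (0.311 to 0.417). In the control library, cytosines with 5 to 9 calls in the TGF-beta library were at 9.15% (6.21 to 12.9), those with 30 to 99 at 2.38% (2.03 to 2.78), those with 300 to 999 at 0.758% (0.680 to 0.842), and those with 3000 or more at 0.208% (0.181 to 0.238). The deepest plus-strand cytosines were thus close to the level of the minus strand. The number of methylated calls changed far less than depth over the same classes. In the TGF-beta library its median went from 6 calls per cytosine in the shallowest class to 19 in the deepest, while median depth went from 10 to 5038 calls. In the control library the median number of methylated calls lay between 1 and 4.5 in every class, while median depth went from 9 to 1320 calls. Most of the differences in level between plus-strand cytosines were therefore differences in the number of unmethylated calls.

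**Figure D3:**
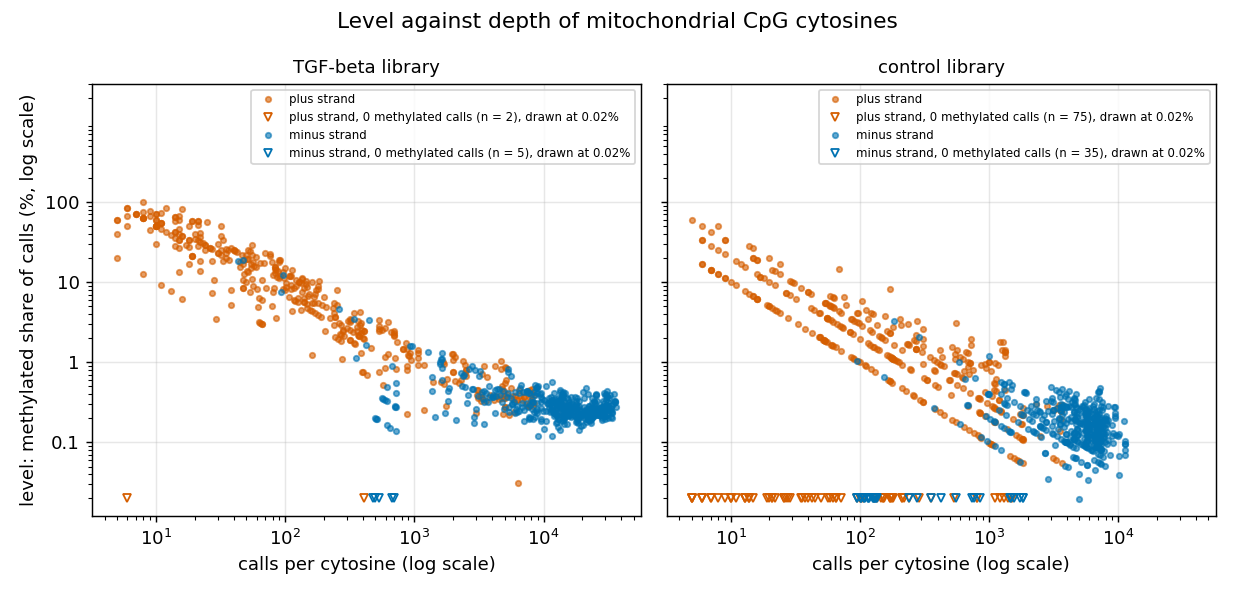
Level of each mitochondrial member (methylated share of its calls, log scale) against its calls (log scale), with the TGF-beta library on the left and the control library on the right, by strand; triangles at the bottom are cytosines with 0 methylated calls. Levels fall with depth on the plus strand in both libraries (Spearman rho of -0.94 and -0.42), and both strands meet below 1% at great depth.

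**Figure D4:**
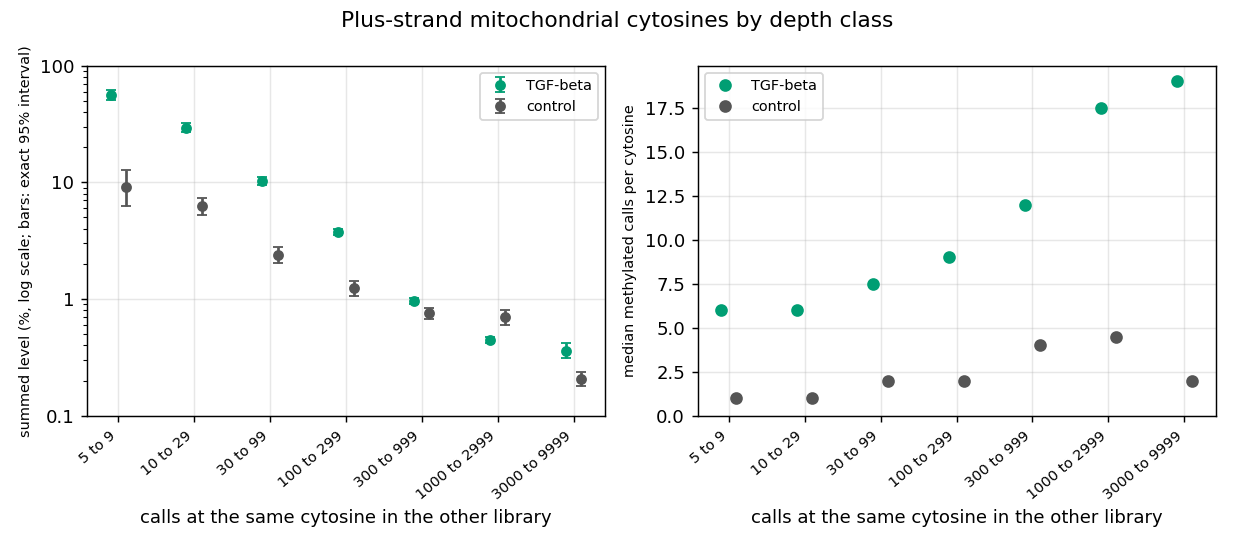
Plus-strand members classed by their calls in the other library: the left panel shows the summed level (log scale) with its exact 95% interval, the right panel the median number of methylated calls per cytosine. In the TGF-beta library the level runs from 56.3% to 0.361% across classes while the median number of methylated calls stays between 6 and 19, and in the control library from 9.15% to 0.208% with 1 to 4.5 methylated calls; the classes hold different cytosines in the 2 libraries.

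On the minus strand 4 members had under 100 calls in the TGF-beta library, and their levels were high for that strand. Shallow minus-strand cytosines were not high throughout. The 20 in the middle of the run described above, with 95 to 135 calls in the control library, belong to a class of 28 with 300 to 999 calls in the TGF-beta library. In the control library that class had a median of 128 calls and a median level of 0%, which says little at such depth. Its summed level there was 0.238% (0.143 to 0.371), close to the 0.172% of the whole strand. The class also holds cytosines outside the run, among them 1196, 1211, 6207, 6444 and 6567. These had 0 of 358, 6 of 587, 2 of 947, 5 of 784 and 4 of 990 calls methylated in the control library. In the TGF-beta library they were at 1.58% to 3.52%, while the highest minus-strand level in the run was 0.661%. The shallowest minus-strand member of the TGF-beta library was 1427, where 8 of 43 calls were methylated in the TGF-beta library (18.6%, 8.39 to 33.4) and 6 of 185 in the control library (3.24%, 1.20 to 6.93). At 813 methylated calls made up 9 of 47 in the TGF-beta library (19.1%, 9.15 to 33.3) and 1 of 95 in the control library (1.05%, 0.0266 to 5.73). At 6402 they made up 12 of 97 in the TGF-beta library (12.4%, 6.56 to 20.6) and 6 of 288 in the control library (2.08%, 0.768 to 4.48). These 3 had the highest levels of the minus strand by the mean of both libraries, and 2 of them lay in its shallow bins at 1001 to 1500 and 6001 to 6500.

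Inside the run of 60 sites both strands had low levels. The plus strand was slightly higher in the TGF-beta library. In the control library the minus strand was slightly higher, with overlapping intervals. The plus strand was at 0.376% (0.354 to 0.400) in the TGF-beta library and 0.141% (0.113 to 0.174) in the control library, and the minus strand at 0.303% (0.285 to 0.323) and 0.161% (0.131 to 0.196). Outside the run the plus strand was at 1.89% (1.83 to 1.956) in the TGF-beta library and 0.855% (0.806 to 0.906) in the control library. The run thus supplied many deep plus-strand calls of low level to the sum over the strand.

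The level of the mitochondrial cytosines was higher in the TGF-beta library. It was higher at 775 of 854 members, lower at 71 and equal at 8. That held for 378 of 415 plus-strand members and 397 of 439 minus-strand members. Summed over all members the difference was 0.117 percentage points, with 0.359 points for the plus strand alone and 0.109 for the minus strand alone. The libraries also differed in depth. Methylated calls were 5.07 times as many in the TGF-beta library on the minus strand, where unmethylated calls were 3.10 times as many. On the plus strand the ratios were 3.77 and 2.39.

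Cytosines of nearly equal depth gave the same direction. At 123 plus-strand members whose smaller depth of the 2 libraries was at least 0.8 times the larger, 1114 of 25820 calls were methylated in the TGF-beta library (4.31%, 4.07 to 4.57) and 363 of 27642 in the control library (1.31%, 1.18 to 1.45), and the level was higher in the TGF-beta library at 116 of them. At 29 such minus-strand members it was 0.403% (0.366 to 0.442) in the TGF-beta library and 0.178% (0.153 to 0.206) in the control library, and higher in the TGF-beta library at 28. This subset was chosen after the data were examined. In bins of 500 bp the summed level was higher in the TGF-beta library in 34 of 34 minus-strand bins and in 32 of 33 plus-strand bins.

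Single cytosines were compared with Fisher's exact test (two-sided) on their calls, with Benjamini-Hochberg adjustment over all 31706906 cytosines tested in the genome. A cytosine was called at an adjusted p under 0.05 and a difference of at least 1 percentage point. By this rule 34 mitochondrial members (3.98%) were called, all of them higher in the TGF-beta library and 0 lower, against 0.717% of all cytosines tested, with 0.400% higher and 0.317% lower. Mitochondrial cytosines were far deeper than the rest, so these shares are not at equal depth. At an unadjusted p under 0.05 in the exact test 297 members were higher in the TGF-beta library and 4 lower. The 34 called were 30 plus-strand cytosines (7.23% of that strand) and 4 minus-strand cytosines (0.911%), and none lay in the run of 60 sites. The share of the deeper minus strand was thus near that of all cytosines tested. Most minus-strand levels were under 1%, so a difference of 1 point was seldom possible there, and without the size limit 38 members were called. The called plus-strand cytosines had 15 to 692 calls in the TGF-beta library, and differences of 2.17 to 66.7 points.

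The 3 largest called differences were all on the plus strand between 7261 and 8084. At 7261, 10 of 15 calls were methylated in the TGF-beta library (66.7%, 38.4 to 88.2) and 0 of 14 in the control library (0%, 0 to 23.2), with an adjusted p of 0.0345 in the exact test. At 8084 the counts were 11 of 19 (57.9%, 33.5 to 79.7) in the TGF-beta library and 1 of 23 (4.35%, 0.110 to 21.9) in the control library, with an adjusted p of 0.0432 in the exact test. At 8069 they were 11 of 21 (52.4%, 29.8 to 74.3) in the TGF-beta library and 2 of 44 (4.55%, 0.555 to 15.5) in the control library, with an adjusted p of 0.00760 in the exact test. The smallest adjusted p, 4.99e-06 in the exact test, was at 15857, with 20 of 252 calls (7.94%, 4.92 to 11.99) in the TGF-beta library and 1 of 522 (0.192%, 0.00485 to 1.06) in the control library. All 4 were far below the minus-strand median in depth. The 3 largest differences were also at cytosines far below the plus-strand medians of 140.0 calls in the TGF-beta library and 153 in the control library. The cytosine at 15857 lay above both plus-strand medians, and it was picked after its values were seen. Taking each call count divided by 2, as if every molecule had been read by both mates, left 1 of 854 mitochondrial cytosines called. The loss was general, since over all 31706906 cytosines tested the number called fell from 227393 to 7554.

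Cytosines with outlying calls were sought in each library by size: a level at least 5 times the summed level of its strand, at least 3 methylated calls, and a lower interval limit above that summed level. On the plus strand this meant at least 4.94% in the TGF-beta library and 3.15% in the control library, and for the minus strand 1.40% and 0.858%. In the TGF-beta library 223 members (26.1%) were outlying, 213 of them on the plus strand (51.3% of that strand). In the control library 59 (6.91%) were, with 55 on the plus strand (13.3%). The plus-strand limit of the TGF-beta library lay below that strand's median level of 6.06%, so outlying does not mean rare there. Shared by the libraries were 49, which is 21.97% of the list of the TGF-beta library and 83.1% of that of the control library. The last share is to be read beside the 51.3% of plus-strand members outlying in the TGF-beta library. The shared ones were 46 plus-strand cytosines and 3 minus-strand cytosines, these 3 at 1211, 1427 and 6402.

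Shared outlying cytosines were shallow for mitochondrial DNA, which the rule itself favours. Level has depth as its denominator, and deep cytosines dominate the summed level that sets the limit. On the plus strand the shared outlying cytosines had a median of 36.5 calls in the TGF-beta library (8 to 149) and 54 in the control library (5 to 172), against strand medians of 140.0 and 153. Their median level was 21.4% in the TGF-beta library and 7.32% in the control library. They were spread over 19 of the 33 plus-strand bins, with 6 at 3581 to 3984, 5 at 8518 to 9000, 5 at 9555 to 9803 and 5 at 12561 to 12971. The level was higher in the TGF-beta library at 46 of the 49, and 1 of the 49 was among the 34 called.

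The 12 with the highest level in the library where each was lower were all on the plus strand. The highest was 13380, with 6 of 9 calls methylated in the TGF-beta library (66.7%, 29.9 to 92.5) and 3 of 5 in the control library (60.0%, 14.7 to 94.7). A group of 3 lay within 12 bp: 3581 had 5 of 10 calls in the TGF-beta library and 3 of 6 in the control library, 3587 had 6 of 10 and 3 of 7, and 3592 had 6 of 10 and 4 of 8. Sites this close are read by the same molecules and are not separate evidence. At 10280 all 8 calls in the TGF-beta library were methylated (63.1 to 100%), against 3 of 9 in the control library (33.3%, 7.49 to 70.1). At 15010 the counts were 12 of 21 in the TGF-beta library (57.1%, 34.0 to 78.2) and 4 of 15 in the control library (26.7%, 7.79 to 55.1). The other 6 had 4 to 10 methylated calls in the TGF-beta library, of 9 to 56, and 3 or 4 in the control library, of 9 to 16, at 8661, 11328, 9728, 3882, 12561 and 12458. All 12 thus rest on at most 56 calls in the TGF-beta library and 16 in the control library, and their intervals are wide. The rule asks for at least 3 methylated calls, so a cytosine with few calls could enter only at a high level. Those with 3 methylated calls in the control library were at that minimum, and the order of the 12 largely follows how few control calls they had.

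Among plus-strand members not in that list, the highest levels by the mean of both libraries were at 8315, 7204 and 1625. At 8315, 13 of 16 calls were methylated in the TGF-beta library and 2 of 7 in the control library. At 7204 the counts were 10 of 12 in the TGF-beta library and 1 of 10 in the control library, and at 1625 they were 5 of 6 and 2 of 29. None of these 3 was outlying in the control library or called in the exact test.

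Mitochondrial depth relative to the autosomes was higher in the TGF-beta library. Over members the mean was 8139 calls per cytosine in the TGF-beta library and 2674 in the control library. Divided by the autosomal means, mitochondrial depth was 286 times the autosomal depth in the TGF-beta library and 151 times in the control library, a ratio between the libraries of 1.89. By strand the relative depth was 519 in the TGF-beta library and 270 in the control library for the minus strand, and 39.3 and 26.4 for the plus strand. Without division by the autosomes, the depth ratio of TGF-beta to control was 3.04 for mitochondrial members. Each of the 38 autosomes was below that, from 1.21 on chromosome 25 to 1.94 on chromosome 35.

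The size of that ratio depended on which cytosines were compared. The libraries cover CpG-dense sequence unequally, and the mitochondrial DNA holds 26.4 CpG sites per kb. Against autosomal windows of 1000 bp with 20 to 39 listed sites, which averaged 30.8 calls per cytosine in the TGF-beta library and 15.9 in the control library, the ratio was 1.57. Within the mitochondrial DNA the depth ratio was itself uneven. It had a median of 3.09 over minus-strand members and 1.07 over plus-strand members, and the TGF-beta library was deeper at 417 of 439 minus-strand members but at 218 of 415 plus-strand members. In the run of 60 sites its median was 4.51 for plus-strand and 5.32 for minus-strand cytosines. Calls per cytosine count sequenced and mapped reads, so the number of mitochondrial genomes per cell and the efficiency with which each strand was recovered cannot be told apart here.

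**Figure D5:**
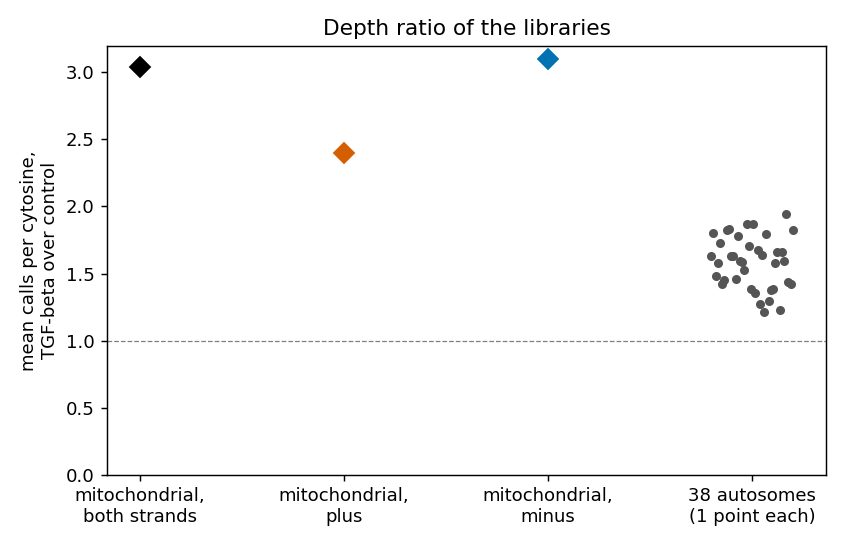
Ratio of mean calls per cytosine, TGF-beta over control, for mitochondrial members (both strands 3.04, plus strand 2.40, minus strand 3.10; diamonds) and for each of 38 autosomes (dots, 1.21 to 1.94). The dashed line marks equal depth, and the 3 mitochondrial values, all ratios of means, lie above every autosome. For the plus strand this rested on the run of closely spaced sites. Outside the run the ratio was 1.42 for the plus strand, within the range of the autosomes, and 3.03 for the minus strand. The median ratio over all plus-strand members was 1.07, below every autosome.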

How the data were processed

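Per the labels' protocols, DNA was sonicated, bisulfite converted after adapter ligation, cut from a gel by size and read as pairs. The deposited values are counts of methylated and unmethylated calls per CpG cytosine, without headers; the authors' aligner is Bismark with Bowtie 0.12.8 on canFam3 per the submitters' processing notes, but SOAPaligner2 per the labels' protocols. How duplicates and overlapping mates were treated is not stated, and kept duplicates would make intervals too narrow. Totals of 1 to 6 calls on chromosome 1 were even at 46.1% of cytosines in the TGF-beta library and 49.3% in the control library, so doubled calls did not show. In each file 1 line naming no chromosome was left out. Library totals were 1019766599 calls in the TGF-beta library and 656122583 in the control library.

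Adjacent positions were joined into CpG sites, and strands were kept apart. Members needed 5 calls in both libraries. Levels are methylated over all calls. Fisher's exact test was run per cytosine over the genome and tested on simulated data. Named cytosines were the shared outlying ones (12 with the highest lower level), the 3 highest others per strand, and the 3 largest called differences in each direction; named bins were the 3 deepest and 3 shallowest per strand by depth over the strand mean, averaged over libraries. The members and rules were chosen with earlier results of these data known. The software was scipy 1.17.1, numpy 2.4.6, numba 0.67.0 and pandas 2.3.3 under Python 3.11.15.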

Additional observations from a re-analysis of the deposited data

How the results depend on the processing

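No paired analysis was possible because each group has 1 library. The level difference between libraries, 0.117 points by summed calls, stayed within its counting interval in 6 of 9 other settings. It was 5.78 points by the mean and 0.209 points by the median of cytosine levels, and 0.726 points at cytosines of nearly equal depth. The plus strand stayed above the minus strand in level: by 14.7 points by the mean of cytosine levels, 5.79 by the median, 0.407 with 100 calls, 0.322 without outlying cytosines and 1.61 without the run of 60 sites in the TGF-beta library, against 0.708 reported; and by 3.38, 0.860, 0.309, 0.278 and 0.683 points in the control library, against 0.458. Shared outlying cytosines numbered 28 at 10 times the strand level, 84 with the level of both strands as base, 7 with 100 calls, and 1 (1211, minus strand) with 3 times the median of the same depth class as the limit, a setting chosen after the data were examined. That last setting says little: its limit lay above 100% for the 96 plus-strand members under 30 calls in the TGF-beta library and small classes had none, so 29 of the 49 could have passed. Mitochondrial cytosines called in the exact test fell to 1 with counts divided by 2, while those of all 31706906 cytosines tested fell from 227393 to 7554. The relative depth ratio was 1.62 by medians, 1.95 over all listed cytosines, 1.57 against CpG-dense autosomal windows, 1.49 on the plus strand, 1.92 on the minus strand and 1.82 without the run. For the plus strand without the run, the plain depth ratio of the libraries was 1.42, below the 1.61 of the autosomes. Plus over minus depth was 0.00990 by medians, 0.0716 over all listed cytosines, 0.0768 at sites with both strands and 0.0325 without the run in the TGF-beta library, against 0.0757, and 0.0305, 0.0925, 0.0992 and 0.0696 in the control library, against 0.0978. Few calls limit single plus-strand cytosines: 96 of 415 had under 30 calls in the TGF-beta library and 93 in the control library. With 1 library per group, leaving out a replicate was not possible.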

Other observations

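The 26 listed mitochondrial cytosines that were no members had under 5 calls in at least one library, and 25 of them were on the plus strand. The same picture of few calls and high levels was seen there in the TGF-beta library: 12 of 16 calls were methylated at 13154, 10 of 14 at 13776 and 8 of 10 at 13720, while the control library had 0 of 3, 1 of 3 and 1 of 2. Both libraries were high at 11409, with 4 of 6 calls in the TGF-beta library and 3 of 4 in the control library, and at 11446, with 5 of 8 and 2 of 2. These positions were picked after their values were seen.

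A short plus-strand stretch near the start of the linear coordinate went against the common direction by a small margin. From 307 to 364 the TGF-beta library had 8 to 15 methylated calls per cytosine of 884 to 1074. The control library had 16 to 23 of 1213 to 1330, and the level was lower in the TGF-beta library at 6 of these 7 cytosines. Sites this close are read largely by the same molecules and are not separate evidence. The smallest unadjusted p among the 7 in Fisher's exact test was 0.0950, at 364. The stretch was picked after its values were seen. The whole plus-strand bin at 1 to 500 was at 1.59% in the TGF-beta library and 1.58% in the control library. Of the 4 members that were lower in the TGF-beta library at an unadjusted p under 0.05 in Fisher's exact test, 983 and 1002 lay in one stretch and 2400 and 2415 in another, and none passed the adjustment.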
